A study of Mus musculus with 7 samples.

Results

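Lecticans, the link proteins that fasten them to hyaluronan, and tenascin-R and tenascin-C were followed through the cell classes of the mouse posterolateral cortical amygdala. The genes were picked by symbol, 10 of the 32285 rows of the count table, and each symbol matched a single row. They are the lecticans Acan, Bcan, Ncan and Vcan, the link proteins Hapln1, Hapln2, Hapln3 and Hapln4, and the tenascins Tnr and Tnc. The rule itself uses no measured value. Single-nucleus RNA sequencing (snRNA-seq) was performed on the anterior (aplCoA) and the posterior (pplCoA) domain of this cortical region, which receives direct input from the olfactory bulb. All animals were wild-type C57BL6J males of about 8 weeks, housed singly and kept in sensory deprivation before sacrifice. Neither group carried a transgene or had a drug treatment apart from anaesthesia with ketamine and xylazine before sacrifice. Each domain has 3 replicates, every one a pool of nuclei from several mice, and the first aplCoA pool was sequenced as a pair of libraries that were summed here. A p-value therefore measures the spread between pools and not between single animals.

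Perineuronal nets and the looser matrix between brain cells are built on hyaluronan, a long sugar chain spun out at the cell surface. Lecticans are chondroitin sulfate proteoglycans whose N-terminal domain binds hyaluronan and whose C-terminal lectin domain binds tenascin-R, and link proteins lock the first of these contacts. Tenascin-R, a trimer, and tenascin-C, a hexamer, crosslink the lecticans. Dense nets are best known from parvalbumin interneurons, while oligodendrocyte precursors and astrocytes are known sources of matrix components.

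After removal of low-quality barcodes and doublets, 46412 nuclei remained, 27361 from aplCoA and 19051 from pplCoA. The 7 libraries held 50812605 to 129624583 unique molecular identifiers (UMIs, each standing for a captured RNA molecule) in all barcodes, and a median of 5147 to 6754 UMIs per retained nucleus. Any pair of libraries shared between 5 and 37 cell barcodes among their nuclei, at most 0.455%. Nuclei were clustered without the 10 genes, so that their levels did not define the classes, and clusters were named by fixed markers. Class names below therefore mean neuron-like, astrocyte-like and so on. The classes are glutamatergic neurons (20057 nuclei), GABAergic neurons (5087), oligodendrocyte precursor cells (OPC, 3641), newly formed oligodendrocytes (NFOL, 309), mature oligodendrocytes (MOL, 1532), astrocytes (9769), microglia (2805), vascular leptomeningeal cells (VLMC, 799) and arachnoid barrier cells (ABC, 1054). Every marker of the glutamatergic, GABAergic, OPC, NFOL, MOL, microglia and VLMC lists was highest in its own class. Of the 6 astrocyte markers 4 were highest in astrocytes, with Gja1 and Gjb6 higher in another class. Of the 5 ABC markers 3 were highest in ABC, with Slc22a8 and Cldn11 higher in another class. The median mitochondrial share of UMIs was higher in aplCoA than in pplCoA in every replicate of the glutamatergic class, 0.0144% to 0.0206% against 0.00824% to 0.0111%, in GABAergic neurons, 0.0208% to 0.0343% against 0.0149% to 0.0174%, and also in OPC and astrocytes. Its part in the differences between domains was not tested.

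The lectican and link protein genes lie in 4 pairs in the mouse genome (GRCm38). Acan (chr7:79053483-79115099, plus strand) and Hapln3 (chr7:79115102-79131018, minus strand) converge tail to tail with 2 bases between them. Bcan (chr3:87987531-88000230) and Hapln2 (chr3:88021750-88027583), both on the minus strand, are 21.52 kb apart. Hapln4 (chr8:70083457-70090862, plus strand) and Ncan (chr8:70093085-70120873, minus strand) converge across 2.222 kb, and Hapln1 (chr13:89539796-89611652, plus strand) and Vcan (chr13:89655312-89742509, minus strand) across 43.66 kb. The tenascins stand alone, Tnr at chr1:159523769-159931729 on the plus strand and Tnc at chr4:63959785-64047015 on the minus strand. The levels of paired genes did not run in parallel over the 9 classes. Pearson's r of log2 levels was 0.47 for Acan with Hapln3, 0.389 for Ncan with Hapln4, 0.33 for Vcan with Hapln1 and -0.156 for Bcan with Hapln2, where the 9 points share libraries and background RNA.

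The starts of the Bcan and Hapln2 pair and of the Vcan and Hapln1 pair are shown because neighbours of each pair were read most in different classes, as the values below show. Each is the RefSeq window from 250 bases before to 50 bases after an annotated start, 5′ to 3′ on the gene's strand in GRCm38.p6, with searched motifs in capitals.
Bcan, chr3:88000307-88000606, minus strand: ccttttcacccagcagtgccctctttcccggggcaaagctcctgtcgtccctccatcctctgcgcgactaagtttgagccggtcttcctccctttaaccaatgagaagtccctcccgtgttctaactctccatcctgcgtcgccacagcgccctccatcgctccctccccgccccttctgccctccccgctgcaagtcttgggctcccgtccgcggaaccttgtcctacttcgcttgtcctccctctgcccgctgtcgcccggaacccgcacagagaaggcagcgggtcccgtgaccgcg
Hapln2, chr3:88027462-88027761, minus strand: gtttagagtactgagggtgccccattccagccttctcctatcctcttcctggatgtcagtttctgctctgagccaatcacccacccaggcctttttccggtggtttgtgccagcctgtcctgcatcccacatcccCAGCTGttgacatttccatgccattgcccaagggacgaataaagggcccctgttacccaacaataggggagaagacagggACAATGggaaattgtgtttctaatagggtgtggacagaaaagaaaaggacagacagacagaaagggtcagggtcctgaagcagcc
Vcan, chr13:89742463-89742762, minus strand: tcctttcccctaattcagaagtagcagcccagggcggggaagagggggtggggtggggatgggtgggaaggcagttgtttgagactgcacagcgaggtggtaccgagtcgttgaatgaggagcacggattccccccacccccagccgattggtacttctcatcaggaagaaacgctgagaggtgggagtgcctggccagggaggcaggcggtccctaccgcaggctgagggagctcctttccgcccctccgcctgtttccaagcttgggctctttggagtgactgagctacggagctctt
Hapln1, chr13:89540386-89540685, plus strand: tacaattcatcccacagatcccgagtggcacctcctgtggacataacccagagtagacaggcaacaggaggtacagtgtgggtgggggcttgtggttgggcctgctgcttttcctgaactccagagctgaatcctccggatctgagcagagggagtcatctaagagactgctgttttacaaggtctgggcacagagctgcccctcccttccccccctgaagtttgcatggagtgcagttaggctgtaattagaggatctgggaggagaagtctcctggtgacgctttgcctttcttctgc
The Bcan window is rich in G and C (64%) and has 24 CpG, while its neighbour Hapln2 has 52.0% and 2 CpG. The Vcan window has 61.0% and 12 CpG, and that of Hapln1 54.33% and 3 CpG. The median over 32851 RefSeq windows was 52.67%. Motifs were searched on both strands, and no matches overlapped in the members' windows. The SOX core (ACAAAG or ACAATG) is in 28.6% of all windows and in those of Hapln2 and Tnr. The E-box CAGCTG is in 16.3% of all windows and in those of Acan, Hapln2 and Ncan. The TATA box letters TATAAA are in 13.62% and in the windows of Hapln3, Ncan and Tnc. No window was available for Hapln4, so it was not searched. The Ncan and Hapln4 pair, also highest in different classes, is not shown.

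**Figure D1:**
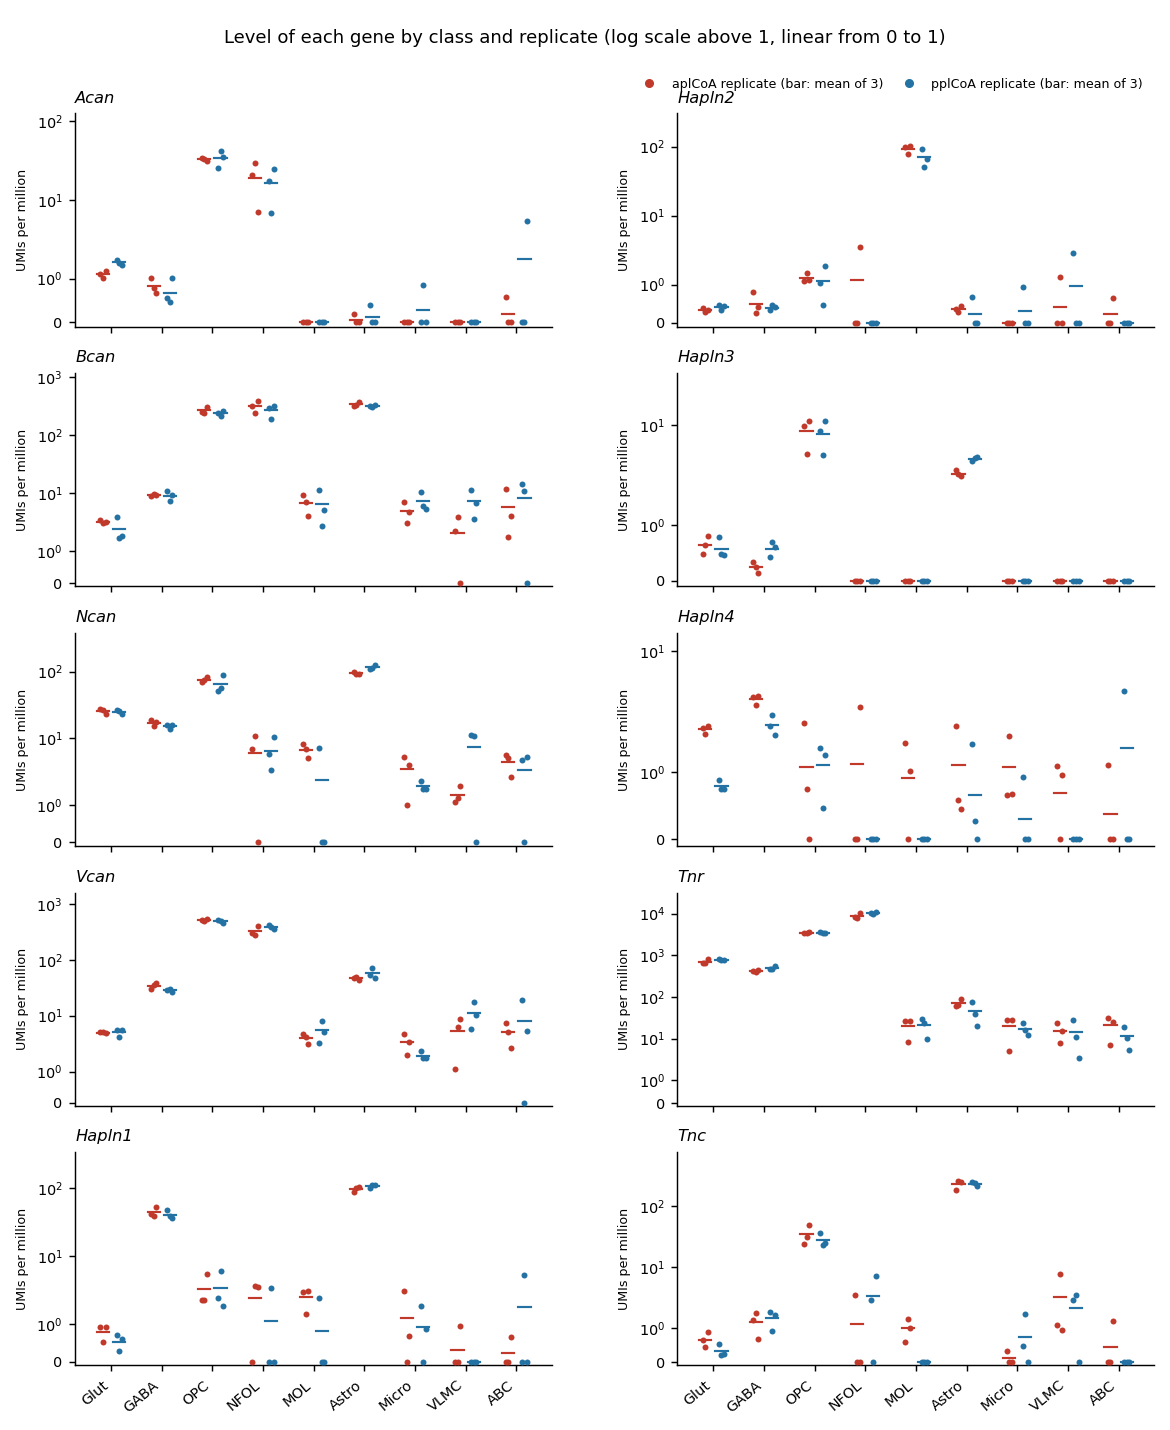
Level of each of the 10 genes (CPM, UMIs scaled to 1000000 of the class, log scale above 1 and linear from 0 to 1) in 9 cell classes, with a point for each replicate coloured by domain and a bar at the mean of the 3 pools of a domain. Acan, Vcan and Hapln3 are highest in OPC, Bcan, Ncan, Hapln1 and Tnc in astrocytes, Hapln2 in MOL, Hapln4 in GABAergic neurons and Tnr in NFOL.

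Levels are UMIs of a gene scaled to 1000000 UMIs of its class in a replicate (CPM), with replicates in the order aplCoA 1 to 3 and pplCoA 1 to 3, and means are given with SD over n = 6 pools. They compare a gene between classes, not genes with each other. Whether the pools of the domains overlap is given as a description only. With 3 against 3 pools the smallest possible exact permutation p is 0.1, so a lack of overlap is not a call. Neighbours in the order of classes were compared by an exact two-sided sign-flip permutation test over the 6 replicates, unadjusted, whose smallest possible p is 0.03125. Of 80 pairs of neighbours, 25 reached that p, in which the 6 replicates all moved the same way, and for 55 the order was not settled. A fold between neighbours is the ratio of their means over the 6 replicates. A step said to hold in all replicates kept its direction in each, not its size. The levels rest on 944 UMIs for Acan, 17185 for Bcan, 12478 for Ncan and 13129 for Vcan, on 5666, 634, 455 and 683 for Hapln1 to Hapln4 in turn, and on 292225 for Tnr and 8715 for Tnc. Near-empty barcodes under 100 UMIs, a measure of free RNA, held each gene too: 443 CPM (389 to 667 over the 7 libraries) for Tnr, 109 for Bcan, 60.4 for Ncan, 31.7 for Vcan and 2.40 for Acan.

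Aggrecan, encoded by Acan and the classical label of perineuronal nets, was read mainly in OPC. The OPC level was 33.9, 32.8 and 31.1 CPM in aplCoA and 25.5, 41.7 and 34.9 in pplCoA (33.3 ± 5.28, SD, n = 6), and the domains overlapped. NFOL followed with 20.8, 29.2 and 7.0 in aplCoA and 17.3, 6.71 and 24.8 in pplCoA (17.6 ± 9.24), a scattered set from few nuclei. Glutamatergic neurons had 1.36 ± 0.276 and GABAergic neurons 0.747 ± 0.233. In MOL not a single Acan UMI was among 5228517, so the OPC level was at least 58.05-fold higher, with a floor of 3 counts over the class, and VLMC, also without a UMI, were at least 40.49-fold lower than OPC. Of all Acan UMIs, 54.7 ± 5.02% came from OPC and 37.1 ± 5.33% from the far more numerous glutamatergic nuclei. An Acan UMI was found in 12.3% of OPC nuclei (median depth 3950 UMIs) against 0.0529% of microglia (3182 UMIs), a class that should lack the gene.

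Brevican (Bcan), a short lectican of the adult brain, was shared by astrocytes, NFOL and OPC. Astrocytes had 308, 328 and 373 CPM in aplCoA and 317, 296 and 330 in pplCoA (325 ± 26.5). The mean was 289 ± 69.1 in NFOL and 251 ± 30.4 in OPC. NFOL was not told apart from either of the others, with an exact sign-flip permutation p of 0.15625 between astrocytes and NFOL and 0.09375 between NFOL and OPC (n = 6 each), while astrocytes were above OPC in each of the 6 replicates. Then came a step of 27.64-fold down to GABAergic neurons at 9.07 ± 1.17, and glutamatergic neurons had 2.81 ± 0.880. Thinned to 2000 UMIs per nucleus, which left out shallower nuclei such as 119 of OPC, 661 of astrocytes and 389 of microglia, Bcan was detected in 46.4% of astrocyte, 39.5% of NFOL and 38.7% of OPC nuclei and in 1.05% of microglia. Without thinning the shares were 64.3%, 67.4%, 61.2% and 1.94%.

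Neurocan (Ncan) was the lectican with a broad neuronal level. Astrocytes came first with 100.4, 92.1 and 91.8 CPM in aplCoA and 111, 113 and 127 in pplCoA (106 ± 13.7), and the domains did not overlap. OPC had 70.7, 73.7 and 82.2 in aplCoA and 51.0, 56.0 and 87.7 in pplCoA (70.2 ± 14.4). In glutamatergic neurons the level was even, 27.6, 26.4 and 23.4 in aplCoA and 26.4, 25.7 and 22.8 in pplCoA (25.4 ± 1.84). The steps from astrocytes to OPC (1.508-fold) and from OPC to glutamatergic neurons (2.767-fold) each held in all 6 replicates. GABAergic neurons followed with 16.2 ± 1.83. Glutamatergic nuclei, deep and many, gave 54.9% of Ncan UMIs and astrocytes 29.0%. NFOL, between OPC and MOL in the lineage, had only 6.27 CPM.

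Versican (Vcan), a large lectican known from the developing brain, ran down the oligodendrocyte lineage. OPC had 505, 498 and 530 CPM in aplCoA and 517, 492 and 458 in pplCoA (499.9 ± 24.5), the tightest set of this gene. NFOL had 355 ± 57.9, 1.41-fold less, and astrocytes 52.1 ± 9.99, a further 6.805-fold less. GABAergic neurons (31.5 ± 4.28) stood well above glutamatergic neurons (5.07 ± 0.505). OPC held 60.02% of Vcan UMIs, astrocytes 13.2% and GABAergic neurons 10.3%. A Vcan UMI was in 76.7% of OPC nuclei and 70.5% of NFOL nuclei, or 57.4% and 45.4% after thinning. Gm16318 and Gm4117 overlap Vcan on the other strand, which strand-aware counting keeps apart.

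Hapln1, the link protein known from cartilage as well as brain, was read in astrocytes and GABAergic neurons. Astrocytes had 87.9, 100.4 and 104 CPM in aplCoA and 99.9, 111 and 111 in pplCoA (102 ± 8.67). GABAergic neurons had 41.4, 38.4 and 52.0 in aplCoA and 46.5, 38.7 and 35.6 in pplCoA (42.1 ± 6.09), a level at which the domains overlapped. The steps from astrocytes to GABAergic neurons (2.432-fold) and on to OPC at 3.35 CPM (12.56-fold) held in all 6 replicates. Astrocytes gave 62.6% of Hapln1 UMIs and GABAergic neurons 32.7%.

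Hapln2, the link protein of nodes of Ranvier, belonged to MOL. It was at 98.2, 79.0 and 101 CPM in aplCoA and 92.3, 51.1 and 65.5 in pplCoA (81.1 ± 19.8), with a pplCoA pool at the bottom and overlap between domains. The next class, OPC, was 68.24-fold lower at 1.19. The share of Hapln2 UMIs from MOL was 68.4 ± 16.0%, and 22.2% of MOL nuclei had a UMI. Bcan, its neighbour on the same strand, was low in MOL, with OPC above MOL by 4.98 ± 0.21 on the log2 scale (edgeR's quasi-likelihood test, adjusted p = 8.555e-29).

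Hapln3 was low everywhere. OPC had 9.89, 5.21 and 11.1 CPM in aplCoA and 8.76, 5.09 and 11.02 in pplCoA (8.52 ± 2.75), so replicate 2 was the lowest of either domain. Astrocytes had 3.54, 3.25 and 3.11 in aplCoA and 4.37, 4.70 and 4.81 in pplCoA (3.96 ± 0.753), without overlap of the domains. The steps from OPC to astrocytes (2.149-fold) and from astrocytes to glutamatergic neurons at 0.614 (6.454-fold) held in every replicate. NFOL, MOL, microglia, VLMC and ABC had no Hapln3 UMI. Against the floor of 3 counts over a class, OPC was at least 5.046-fold higher than NFOL, 14.85-fold than MOL, 28.2-fold than microglia, 10.36-fold than VLMC and 12.59-fold than ABC. The 3′ ends of Hapln3 and Acan nearly touch, and both were highest in OPC.

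Hapln4, a link protein known from inhibitory synapses and nets, was highest in GABAergic neurons. GABAergic neurons had 4.20, 3.61 and 4.28 CPM in aplCoA and 2.41, 3.00 and 2.02 in pplCoA (3.25 ± 0.935). Glutamatergic neurons had 2.34, 2.08 and 2.43 in aplCoA and 0.886, 0.749 and 0.749 in pplCoA (1.54 ± 0.825). In both neuron classes every aplCoA pool lay above every pplCoA pool. GABAergic neurons were above glutamatergic neurons in all replicates, and their means were 2.114-fold apart. In contrast, glutamatergic neurons and OPC (1.12) were not told apart (exact sign-flip permutation p = 0.5, n = 6). Glutamatergic neurons, by number and depth, gave 64.1% of its UMIs. The near-empty barcodes held a median of 7.08 CPM, above the highest replicate of GABAergic neurons in 6 of 7 libraries, so free RNA limits what its low levels show in neurons and glia alike.

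Tenascin-R (Tnr), made by oligodendrocyte-lineage cells and some neurons, peaked in NFOL. The NFOL level was 8101, 8081 and 10309 CPM in aplCoA and 10650, 9730 and 10718 in pplCoA (9598 ± 1219). OPC had 3345, 3427 and 3684 in aplCoA and 3553, 3362 and 3523 in pplCoA (3482 ± 130), 2.756-fold below NFOL and with little spread. In MOL, the next stage of the lineage, the level was down to 20.8, which was not told apart from microglia at 18.9 ± 9.28 (exact sign-flip permutation p = 0.34375, n = 6).
Neurons read Tnr as well. Glutamatergic neurons had 644, 651 and 838 in aplCoA and 799, 788 and 774 in pplCoA (749 ± 81.5), with an aplCoA pool the highest of all. GABAergic neurons had 415, 407 and 456 in aplCoA and 470, 479 and 540 in pplCoA (461 ± 48.5), without overlap of the domains. OPC stood 4.649-fold over glutamatergic neurons, these 1.624-fold over GABAergic neurons, and those 7.893-fold over astrocytes at 58.4 ± 25.2, each step in all 6 replicates. Glutamatergic nuclei gave 66.9% of Tnr UMIs and OPC 18.9%. After thinning to 2000 UMIs, 99.2% of OPC, 98.4% of NFOL, 70.4% of glutamatergic, 47.0% of GABAergic and 3.47% of microglial nuclei had a Tnr UMI (99.8%, 99.3%, 97.2%, 74.0% and 5.96% without thinning, at median depths of 3950, 5201, 12212, 7907 and 3182 UMIs). The RNAs Gm37731 and Gm10530 overlap the 408.0 kb Tnr gene on the same strand, so reads in the shared stretch are uncertain.

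Tenascin-C (Tnc), a glial tenascin of the developing and injured brain, was the most astrocytic of the 10 by its share of UMIs, 90.7 ± 1.04%. Astrocytes had 186, 255 and 250 CPM in aplCoA and 250, 239 and 213 in pplCoA (232 ± 27.3), with the first aplCoA pool lowest. OPC had 24.0, 31.3 and 49.2 in aplCoA and 36.6, 23.2 and 24.8 in pplCoA (31.5 ± 10.1), 7.371-fold less. None of the other 7 classes passed a mean of 2.70, while an unnamed cluster of 1057 nuclei had 17.2 ± 11.7. A Tnc UMI was in 37.5% of astrocyte and 10.0% of OPC nuclei, or 27.8% and 5.42% after thinning.

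Contrasts between classes were fitted over 14990 genes with the replicate as a block, and all values that follow are log2 differences ± SE by the quasi-likelihood test of edgeR with Benjamini-Hochberg adjustment. Hapln3 and Hapln4 had too few UMIs for that fit, which leaves 8 members. Between GABAergic and glutamatergic neurons 7 of 8 passed the test, against 56.1% of all genes. Hapln1 was 5.68 ± 0.15 higher in GABAergic neurons (adjusted p = 1.455e-37), followed by Vcan (2.42), Bcan (1.45) and Tnc (1.13), while Acan (-0.98), Tnr (-0.91) and Ncan (-0.85) were higher in glutamatergic neurons. Near-empty barcodes held more than either neuron class of Tnc (13.6 CPM against 1.37 in GABAergic and 0.497 in glutamatergic neurons) and Acan (2.40 against 0.747 and 1.36). The same held for Bcan (109 against 9.07 and 2.81), Vcan (31.7 against 31.5 and 5.07) and Ncan (60.4 against 16.2 and 25.4). The part of free RNA in these contrasts was not tested. Between astrocytes and glutamatergic neurons 7 of 8 passed, against 77.4% of all genes, a share that leaves little to read from the count itself. Tnc (8.58), Hapln1 (7.04), Bcan (6.71), Vcan (3.21) and Ncan (1.92) were higher in astrocytes and Tnr (-3.83) and Acan (-3.23) in glutamatergic neurons. Acan was under its near-empty level in astrocytes as well.

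OPC and astrocytes differed in every member tested. All 8 members tested passed (62.4% of all genes did), 4 in each direction. Acan (7.57 ± 0.31, edgeR adjusted p = 1.498e-26), Tnr (5.82), Vcan (3.18) and Hapln2 (1.56) were higher in OPC, although Hapln2 was at 1.19 CPM in OPC and 0.296 in astrocytes, both under the 3.48 of near-empty barcodes. Hapln1 (-5.06 ± 0.19, edgeR adjusted p = 7.211e-32), Tnc (-2.98), Ncan (-0.69) and Bcan (-0.47) were higher in astrocytes. The median absolute difference of the members was 3.084, against 0.5549 over all genes.

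Along the oligodendrocyte lineage the set turned over. From OPC to NFOL, 5 of 8 members passed (35.6% of all genes): Tnr was 1.32 lower in OPC on the log2 scale, and Tnc (3.93), Ncan (3.62), Acan (1.06) and Vcan (0.63) were higher in OPC. Between NFOL and MOL 5 of 8 passed (33.2% of all genes), with Tnr, Acan, Vcan and Bcan higher in NFOL and Hapln2 higher in MOL. Between OPC and MOL 7 of 8 passed (52.0%), with 6 higher in OPC, among them Tnr (7.196), Vcan (6.79), Tnc (5.66) and Ncan (3.39), and Hapln2 6.27 ± 0.23 higher in MOL (edgeR adjusted p = 1.102e-31, fitted value -6.27 as OPC minus MOL). Bcan did not pass between OPC and NFOL (-0.051 ± 0.13, edgeR adjusted p = 0.809). The OPC class itself held a small cluster of 39 nuclei led by the cell division genes Top2a, Esco2 and Knl1, with 4 nuclei in its smallest replicate. Tnr was at 2214 ± 568 CPM there against 3501 ± 133 in the main OPC cluster.

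**Figure D2:**
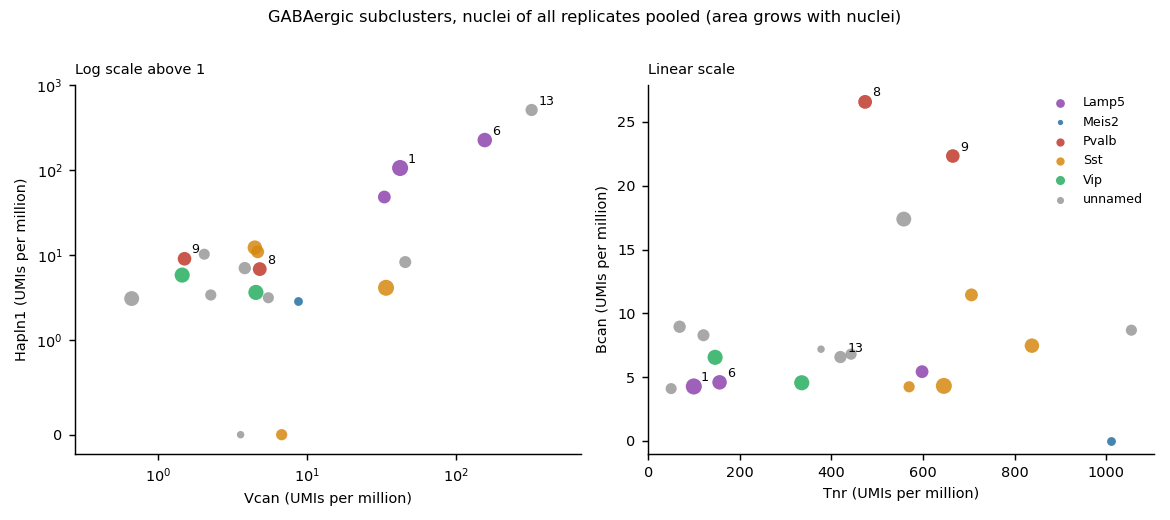
Left, Hapln1 against Vcan, and right, Bcan against Tnr (CPM, replicates pooled) in the 20 unmixed GABAergic subclusters, with a point per subcluster coloured by subclass, its area growing with the nuclei and numbers naming the subclusters described. Hapln1 and Vcan are highest in the same unnamed subcluster (507 and 324), followed for both genes by a Lamp5 subcluster (225 and 157), and Bcan is highest in the Pvalb subclusters (26.6 and 22.3).

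GABAergic neurons were clustered again, still without the 10 genes. This gave 20 subclusters that were not shallow and had at most 1 marker of another class among their leading genes. Some of them could be named by markers of Pvalb, Sst, Vip, Lamp5 and Meis2 neurons. Hapln1 ranged from 0 to 507 CPM. The highest level was in an unnamed subcluster of 172 nuclei, in which Hapln1 and Vcan were themselves the leading genes although neither had been used to form it. The next 3 subclusters by Hapln1 were all of Lamp5 neurons, which include neurogliaform cells, with 225, 106 and 48.1, and their order by Vcan was the same (157, 42.4 and 33.2). An unnamed subcluster with Vcan at 45.9 and an Sst subcluster at 34.1 fell between them by Vcan but had Hapln1 at only 8.28 and 4.13. Over the 20 subclusters Pearson's r of the log2 levels of Hapln1 and Vcan was 0.751, as a description of points that share libraries and free RNA.
In the Lamp5 subclass (1062 nuclei) Hapln1 was at 144, 158 and 135 in aplCoA and 139, 96.0 and 114 in pplCoA, and domains overlapped. Vcan was at 79.9, 125 and 87.9 in aplCoA and 65.9, 48.5 and 73.4 in pplCoA, without overlap. A Hapln1 UMI was in 47.9% of Lamp5 nuclei and 16.5% of all GABAergic nuclei, or 20.2% and 7.03% after thinning.

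Pvalb neurons (546 nuclei), so named by their markers, were compared with all other GABAergic nuclei of the same pool. Their subclusters, of 281 and 265 nuclei, had a Pvalb UMI in 18.9% and 30.6% of nuclei. The larger was led by Gm20658, Vipr2 and Unc5b, and only the smaller had Pvalb among its leading genes. Bcan was at 26.6 CPM in the larger and 22.3 in the smaller. Which of these nuclei bear nets was not tested. The other side of the contrast held unnamed subclusters that scored highest for Pvalb markers but rarely had Pvalb itself. The largest of these, of 382 nuclei, had Bcan at 17.4 CPM, and the others 6.57 and 8.28. All 5 members with enough UMIs passed edgeR's quasi-likelihood test, against 33.8% of all genes. Bcan was 1.82 ± 0.18 higher in Pvalb neurons on the log2 scale (edgeR adjusted p = 4.528e-10) and Tnr 0.43 ± 0.056 higher. Vcan (-3.56), Hapln1 (-2.58) and Ncan (-1.03) were lower. By subclass, mean Hapln1 was 7.64 CPM in Pvalb, 6.31 in Sst and 4.45 in Vip neurons, against 131 in Lamp5 neurons. Mean Vcan was 2.39 in Pvalb, 17.7 in Sst, 2.94 in Vip and 80.2 in Lamp5 neurons. Bcan in Pvalb neurons was at 24.7, 17.02 and 24.7 CPM in aplCoA and 27.7, 16.4 and 26.7 in pplCoA (22.9 ± 4.93), replicate 2 being the low pool in both domains. Acan had only 17 UMIs in Pvalb neurons, with 3.10% of nuclei positive and 0.526% after thinning. Its highest GABAergic subcluster was nevertheless a Pvalb subcluster, at 3.62 CPM.
Tnr ranged from 49.8 to 1055 CPM over the subclusters. It was high in Sst neurons (634, 606 and 668 in aplCoA; 754, 726 and 876 in pplCoA) and in a Meis2 subcluster (1011). It was lower in Vip neurons (208, 221 and 157 in aplCoA and 205, 325 and 276 in pplCoA) and Lamp5 neurons (159, 132 and 188 in aplCoA and 232, 290 and 307 in pplCoA). The Lamp5 value holds unlike subclusters, with Tnr at 99.3 and 155.6 in the larger and 597.9 in the smallest, of 207 nuclei. In Sst and Lamp5 neurons every pplCoA pool was above every aplCoA pool, and in Vip and Pvalb neurons the domains overlapped. These subclasses were not tested between domains.

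**Figure D3:**
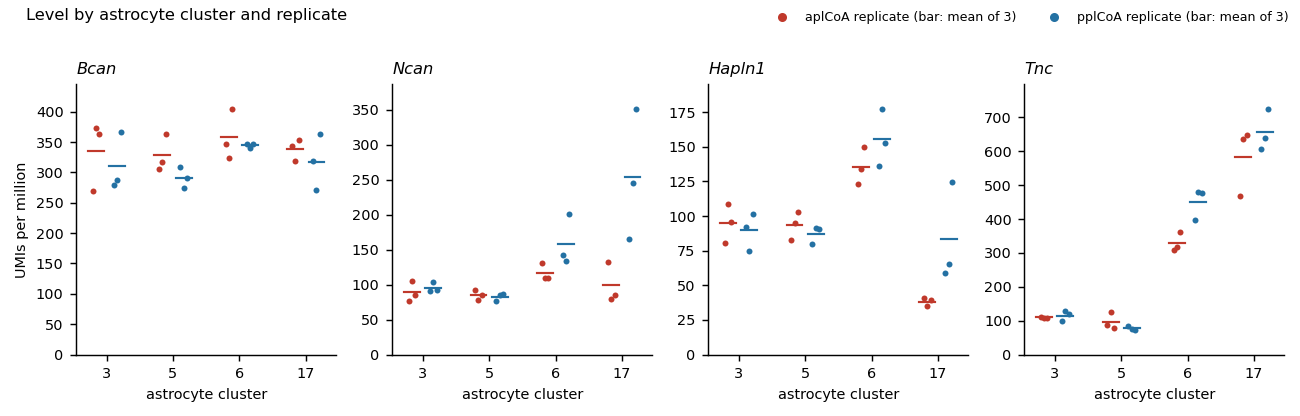
Levels (CPM) of Bcan, Ncan, Hapln1 and Tnc in the 4 astrocyte clusters, numbered 3, 5, 6 and 17, with a point per replicate and a bar at the mean of the 3 pools of a domain. Tnc goes from 112 and 87.2 in clusters 3 and 5 to 390 and 621 in clusters 6 and 17, while Bcan stays between means of 310 and 351.

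Astrocytes fell into 4 clusters that differed in Tnc. Its mean level was 112 ± 10.2 in cluster 3 (3046 nuclei), 87.2 ± 19.3 in cluster 5 (2784), 390 ± 75.3 in cluster 6 (2681) and 621 ± 84.8 in cluster 17, whose 1258 nuclei were led by Myoc, A2m and Gfap. In cluster 6 Tnc was at 307, 319 and 361 in aplCoA and 398, 479 and 477 in pplCoA, so the domains did not overlap there, although they did over all astrocytes. Bcan was level across the 4 clusters, with means of 310 to 351.
Cluster 17 was also set apart by Tnr, at 272, 333 and 386 in aplCoA and 399, 280 and 22.7 in pplCoA against means of 23.5 to 35.6 in the other clusters. Ncan there was at 132, 79.7 and 85.7 in aplCoA and 165, 245 and 351 in pplCoA, beside 130, 109 and 110 in aplCoA and 142, 133 and 201 in pplCoA in cluster 6, so these clusters overlapped. Hapln1 in cluster 17 went the other way, with 40.9, 34.7 and 39.1 in aplCoA and 59.1, 65.7 and 125 in pplCoA against means of 90.3 to 146 in the other clusters. The third pplCoA pool stood apart in cluster 17 for Ncan, Tnr and Hapln1, where the smallest replicate had 33 nuclei. Cluster 17 made up 12.4% to 19.1% of aplCoA and 3.7% to 12.0% of pplCoA astrocytes, and its part in the astrocyte values per domain was not tested.

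Glutamatergic neurons formed 27 subclusters. Of these, 3 (374 nuclei) were left out, as they had more than 1 marker of another class among their leading genes or were shallow, and 24 are described. Tnr ran from 312 to 979 CPM over them and Ncan from 13.2 to 43.8, so both genes were read in each of the 24. Acan reached 6.75 and Hapln4 7.15 at most among them. Vcan was highest in a subcluster of 23 nuclei led by Sim1, at 82.8, and the next of the 24 was at 15.6. The authors place their Sim1 glutamatergic neurons in the nucleus of the lateral olfactory tract, outside this cortical region. A shallow subcluster of 138 nuclei, left out of the 24 and led by Trp73, Ndnf and Ebf3, had Vcan at 76.5. The subclusters were split by their glutamate transporter into those with more Slc17a6 (VGluT2) and those with more Slc17a7 (VGluT1), and the contrast used the 4 replicates with at least 20 nuclei in either group, 3 of aplCoA and pplCoA 1. Of 9 members tested 5 passed edgeR's quasi-likelihood test, against 46.4% of all genes. Hapln4 was 1.62 ± 0.19 higher in Slc17a6 neurons (edgeR adjusted p = 2.487e-05), and Tnc, at very low levels, 1.16 higher. Vcan (-0.70), Ncan (-0.62) and Tnr (-0.50) were higher in Slc17a7 neurons. Without aplCoA 3 the count fell to 3, as Vcan (adjusted p = 0.0608) and Tnc (0.0666, edgeR) were lost, and Vcan was also lost without aplCoA 1 (0.0934).

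**Figure D4:**
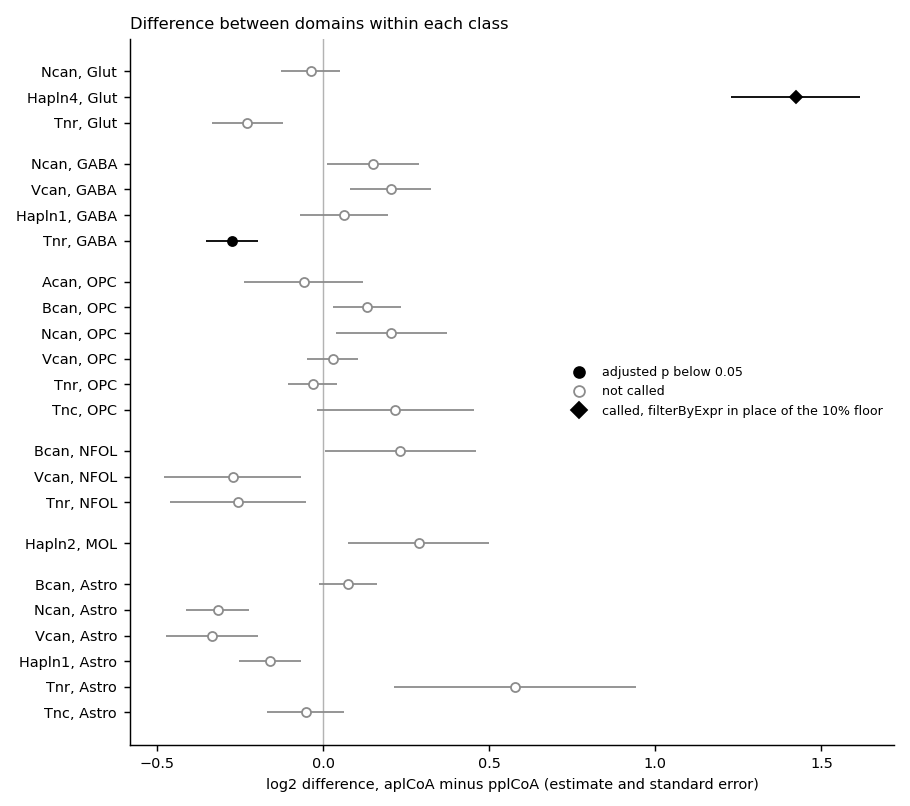
Log2 difference between domains (aplCoA minus pplCoA, point and SE) of each member tested per class by edgeR's quasi-likelihood test, filled where the adjusted p is under 0.05. Tnr in GABAergic neurons (-0.28) is the filled circle. The diamond is Hapln4 in glutamatergic neurons (1.42), which was under the 10% floor and is shown from the test with filterByExpr in its place.

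The comparison of the domains asks whether the anterior and posterior cortical amygdala differ in these matrix genes within a class. Genes with a UMI in at least 10% of the nuclei of a domain were tested over the 3 against 3 pools by the quasi-likelihood F test of edgeR with adjustment over the genes of each fit, and values are log2 differences, aplCoA minus pplCoA, ± SE. In bulk of all nuclei a change in the number of cells and a change of RNA per cell cannot be told apart. In GABAergic neurons 1 of 4 members tested passed, against 9.95% of all genes. It was Tnr, lower in aplCoA by 0.28 ± 0.077 (-0.28, edgeR adjusted p = 0.0388), and each aplCoA pool was below each pplCoA pool. The call was lost without aplCoA 1 (edgeR adjusted p = 0.141), aplCoA 2 (0.135), pplCoA 2 (0.0893) or pplCoA 3 (0.172), and, in a check chosen after seeing the data, without a mixed subcluster of 170 nuclei (0.0541). Vip neurons, low in Tnr, were 7.85% to 13.7% of aplCoA and 16.1% to 24.6% of pplCoA GABAergic nuclei. The summed OPC markers in GABAergic nuclei, 5 genes with none at 0, were 304 to 311 CPM in aplCoA and 344 to 356 in pplCoA, against 9239 in OPC, and the 1 of them tested was called. The summed glutamatergic markers, 6 genes with none at 0, were 27.29 to 39.96 CPM in aplCoA and 16.6 to 32.0 in pplCoA, and the 1 tested was called too. The part of these values in the Tnr difference was not tested.
Ncan (0.15), Hapln1 (0.06) and Vcan (0.20) did not pass in GABAergic neurons.

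In glutamatergic neurons neither Tnr (-0.23 ± 0.11, edgeR adjusted p = 0.175) nor Ncan (-0.04) passed, whereas 20.9% of all genes did. DESeq2 called neither, and neither had an unadjusted p under 0.05. Without the high pool aplCoA 3, Tnr passed (-0.36, edgeR adjusted p = 0.0158). Within the Slc17a7 clusters 0 of 2 passed and 0 had an unadjusted p under 0.05, with 10.5% of all genes called by edgeR and no member by DESeq2. There too Tnr passed without aplCoA 3 (-0.28, edgeR adjusted p = 0.0439).

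**Figure D5:**
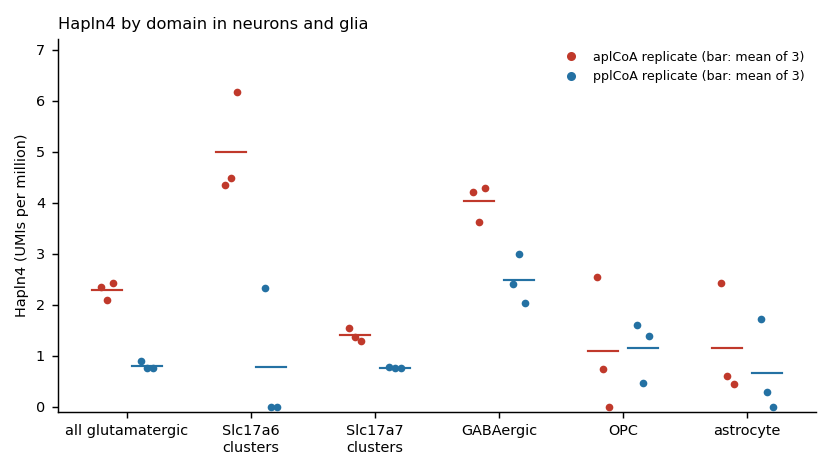
Hapln4 level (CPM) per replicate in glutamatergic neurons, their Slc17a6 and Slc17a7 clusters, GABAergic neurons, OPC and astrocytes, by domain, with a bar at the mean of 3 pools. In glutamatergic neurons the aplCoA pools lie at 2.08 to 2.43 and the pplCoA pools at 0.749 to 0.886, and in OPC and astrocytes the domains overlap.

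Hapln4 did not reach the 10% floor in any class. With edgeR's filterByExpr in place of that floor, under which all 10 members were tested in glutamatergic neurons, it was the 1 member that passed there, against 16.6% of all genes. The difference was 1.42 ± 0.19, that is 2.68-fold higher in aplCoA (edgeR adjusted p = 0.00313). Over 17 further alternatives, chosen after seeing the data, it stayed between 1.32 and 1.57, with edgeR or DESeq2 adjusted p of 1.28e-08 to 0.0226. The summed OPC markers in glutamatergic nuclei, 5 genes with none at 0, were 560 to 608 CPM in aplCoA and 217 to 432 in pplCoA, against 9239 in OPC, and the 1 of them tested was called, but their part in the Hapln4 value was not tested. The Slc17a6 clusters, higher in Hapln4, made up 34.2%, 24.8% and 25.8% of aplCoA but 8.80%, 0.587% and 0.446% of pplCoA glutamatergic nuclei. Within the Slc17a7 clusters the level was 1.55, 1.36 and 1.29 CPM in aplCoA and 0.77, 0.76 and 0.75 in pplCoA, without overlap. The difference there was 0.84 ± 0.21 (edgeR adjusted p = 0.0419), where Hapln4 was again the 1 member of 10 to pass and 7.69% of all genes did. This group is itself mixed, with Hapln4 from 0.362 to 6.39 CPM over its subclusters. The highest, of 577 nuclei, had Slc17a6 at 103 CPM beside Slc17a7 at 149. The mix of subclusters inside the group was not compared between domains, and its part in the difference was not tested. Within the Slc17a6 clusters the aplCoA pools had 4.34, 4.48 and 6.16 and pplCoA 1 had 2.33, while pplCoA 2 and 3, of which the smaller had 10 nuclei, held no Hapln4 UMI and allow no comparison. Acan, also under the 10% floor in glutamatergic neurons, was at 1.13, 1.02 and 1.24 CPM in aplCoA and 1.72, 1.58 and 1.497 in pplCoA, without overlap. With filterByExpr it did not pass (-0.59 ± 0.19, unadjusted p = 0.0116 and adjusted p = 0.0626 by edgeR). For Hapln4 in GABAergic neurons the difference of 0.68 ± 0.28 did not pass (edgeR adjusted p = 0.165). Near-empty barcodes held Hapln4 at 15.1, 6.35, 10.2 and 10.1 CPM in the 4 aplCoA libraries and 2.98, 5.82 and 7.08 in the 3 pplCoA libraries. Only the second library of aplCoA 1, at 6.35 and not summed here with the first, lay under any pplCoA library. The other aplCoA libraries were above all of pplCoA. The part of this free RNA in the difference was not tested.

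In OPC 0 of 6 members tested passed, with 6.53% of all genes called, none at an unadjusted p under 0.05 and none called by DESeq2. The values ran from -0.06 ± 0.18 for Acan to 0.22 ± 0.24 for Tnc, and Tnr (-0.03 ± 0.074) and Vcan (0.03 ± 0.076) had the smallest errors. Without pplCoA 3 Ncan passed (0.48, edgeR adjusted p = 0.0424). In NFOL 0 of 3 passed, as did 0.0% of all genes, of which 705 had an unadjusted p under 0.05 but no member. Hapln2 in MOL differed by 0.29 ± 0.21 (edgeR adjusted p = 0.625), with 2.35% of all genes called.
In astrocytes 0 of 6 members passed edgeR's test, against 0.617% of all genes, and DESeq2 called none. At an unadjusted p under 0.05 there were 2, Ncan (-0.32 ± 0.095, edgeR adjusted p = 0.162) and Vcan (-0.34 ± 0.14, edgeR adjusted p = 0.294). Tnr had 0.58 ± 0.36, and passed without pplCoA 1 (1.24, edgeR adjusted p = 0.0358), while Bcan (0.07) and Tnc (-0.05) differed little.
No member was in 10% of nuclei of microglia, VLMC or ABC, where 0.0%, 0.124% and 0.0% of all genes passed (244 genes in microglia and 456 in ABC had an unadjusted p under 0.05).

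Over all nuclei 2 of 4 members passed, against 18.8% of all genes. Tnr was at 618, 656 and 795 CPM in aplCoA and 824, 838 and 870 in pplCoA (-0.38 ± 0.097, edgeR adjusted p = 0.0295). Vcan was at 26.9, 31.7 and 35.4 in aplCoA and 39.0, 36.3 and 37.8 in pplCoA (-0.36 ± 0.10, edgeR adjusted p = 0.0449). Both were lower in every aplCoA pool, and neither passed when any of aplCoA 1, aplCoA 2, pplCoA 2 or pplCoA 3 was left out (edgeR adjusted p of 0.0731 to 0.11 for Tnr and 0.0752 to 0.122 for Vcan), nor did Vcan without pplCoA 1 (0.0812). OPC, the class richest in Vcan, were 6.34 ± 0.783% of aplCoA and 10.5 ± 1.02% of pplCoA nuclei (n = 3 pools each), without overlap.

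Whether the difference between domains itself differed between classes was asked by interaction terms, and edgeR's quasi-likelihood test called no member. Between OPC and astrocytes, 5 members were tested and 0.0% of all genes passed. At an unadjusted p under 0.05 there were 2 members, Ncan (0.56 ± 0.15, edgeR adjusted p = 0.304) and Vcan (0.37 ± 0.13, edgeR adjusted p = 0.407). Between glutamatergic and GABAergic neurons 4.94% of all genes passed, and Tnr (0.05 ± 0.090, edgeR adjusted p = 0.831) did not, so the call of Tnr in GABAergic neurons was not shown to be particular to them. Between glutamatergic neurons and OPC 3.88% passed, and Tnr had -0.19 ± 0.090 (edgeR adjusted p = 0.315). Between OPC and MOL no member could be tested and 0.0% of all genes passed.

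The pathway around these 10 genes was described by 66 genes of hyaluronan and chondroitin sulfate metabolism, further proteoglycans, matrix proteases with their inhibitors, and receptors. These genes were listed with earlier results of these data known. In glutamatergic neurons 34 were tested and 13 passed edgeR's test, 12 lower and 1 higher in aplCoA (DESeq2 called 14), against the 20.9% of all genes given above, with a median of -0.187 over the list and 0.004812 over all genes. Csgalnact1, which starts and extends chondroitin sulfate chains, was at 64.8, 53.2 and 56.8 CPM in aplCoA and 87.4, 152 and 155 in pplCoA (-1.26 ± 0.20, edgeR adjusted p = 0.00663). Every pplCoA pool was above every aplCoA pool. Adamts9 (-1.14), a protease of the family that cleaves lecticans, Chst15 (-0.77), a chondroitin sulfotransferase, the integrin Itga8 (-0.74) and Rtn4rl2 (-0.69), of the Nogo receptor family, were lower as well. The remaining calls were Has1, Xylt1, Ust, Ptprz1, Timp4, Timp3 and Rtn4rl1, lower, and the protease inhibitor Timp2, higher. The Slc17a6 clusters were 34.2%, 24.8% and 25.8% of aplCoA but 8.80%, 0.587% and 0.446% of pplCoA glutamatergic nuclei. The summed OPC markers in glutamatergic nuclei were 560 to 608 CPM in aplCoA and 217 to 432 in pplCoA. The lists were not tested within the Slc17a7 clusters, and the part of these values in the calls was not tested.
In GABAergic neurons 28 were tested and 6 passed, all lower in aplCoA (9.95% of all genes passed). The protease inhibitors Timp4 (-0.76) and Timp3 (-0.57), the hyaluronan synthase Has1 (-0.75), the receptor-type proteoglycan Ptprz1 (-0.50) and the sulfotransferase Ust (-0.37) were among them, with Sema3a, and DESeq2 called 4 of the 28, none of them a receptor or partner. Ptprz1 was at 315, 293 and 267 in aplCoA and 363, 412 and 415 in pplCoA, without overlap (edgeR adjusted p = 0.00414). In OPC, astrocytes and MOL edgeR called 0 of the 23, 16 and 11 genes tested, of which 3, 2 and 2 had an unadjusted p under 0.05, and DESeq2 called 0, 0 and 1.

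Genes whose log2 level over the 9 class means was most like that of a member were taken as a description, out of 13901 genes, where the points share libraries and free RNA. For Acan they were Chst5 (r = 0.989), 1110015O18Rik (0.9782) and Susd5 (0.9757), and for Vcan Car8 (0.9954), Lrp2bp (0.9744) and Mageh1 (0.9655). Tnr was most like Gm6588 (0.9956), 4430402I18Rik (0.9873) and Sez6l (0.9817). Bcan was nearest to Kcnj16 (0.9792), Gpr37l1 (0.9755) and Scrg1 (0.9703), and Ncan to Rgs20 (0.9882), Tmie (0.9776) and Disp3 (0.9698). Hapln1 was nearest to Sox1 (0.9782), Egfl6 (0.9699) and Glyctk (0.9697), Hapln2 to Pkd2l1 (0.9946), Gm43242 (0.9903) and Gm1979 (0.99), and Tnc to Six3 (0.9809), Slc7a10 (0.9779) and Gldc (0.9731). Hapln3 and Hapln4 were too low for such a comparison.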

How the data were processed

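Nuclei of both domains were sorted by DRAQ7 fluorescence and sequenced with 10x 3′ v3.1 chemistry. The authors aligned reads to mm10 (GENCODE-based annotation, introns included) and deposited raw, unfiltered UMI counts per gene and barcode, with Cell Ranger 5.0.0 per the submitters' processing notes. The counts keep strand and free RNA, and 17443221 barcodes were listed. From these, 52201 barcodes with at least 1000 genes were kept, then 51538 after a UMI limit, 50535 after limits on mitochondrial and similar shares, and 46412 after 4123 doublets were removed. Scanpy 1.11.5 normalised Pearson residuals of 5000 variable genes and 50 components, with 15 neighbours and resolution 1.0, gave 37 clusters; 1057 nuclei stayed unnamed, and macrophages (261) and mural cells (41) were too few to test. Mixed or shallow neuronal subclusters (544 nuclei) stayed in the class sums but not among the subclusters described. No column of another series was present.

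UMIs were summed per class and replicate and tested with edgeR 4.0.16 (glmQLFit, TMM, Benjamini-Hochberg over all genes tested, adjusted p under 0.05), and the alternatives included its likelihood ratio test and DESeq2 1.42.0. Genes between domains needed a UMI in 10% of the nuclei of a domain, and classes 20 nuclei per replicate. The code was tested on simulated counts. Named genes were all 10 members, the 5 largest calls per class of the fixed lists and the 3 nearest genes per member. The members and lists were chosen with earlier results of these data known. Floors cover counting error only, while SDs are over pools and SEs come from the quasi-likelihood fit over pools. No protein sequence was used here. The 78 rows that share a symbol with another row include no member. Same-numbered replicates of the domains gave correlations of their deviations of 0.107, -0.0448 and 0.103 over 15701 genes and were not treated as pairs.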

Additional observations from a re-analysis of the deposited data

Results flagged for a closer look

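Free RNA held more Hapln4 than the mean of any of the 9 cell classes, though not than that of the Pvalb subclass. In near-empty barcodes under 100 UMIs, which no comparison used, its median over the 7 libraries was 7.08 CPM (UMIs scaled to 1000000) (2.98 to 15.1, from 282 UMIs in all), above the highest replicate of GABAergic neurons, the class with the highest mean, at 4.28 in 6 of 7 libraries. A replicate of ABC, a class with 3 Hapln4 UMIs in all, reached 4.75. The Pvalb subclass of GABAergic neurons had a mean of 7.17 ± 3.59 from 44 UMIs. No other member was above the highest replicate of its highest class in these barcodes. The part of RNA outside nuclei in this value was not tested.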

How the results depend on the processing

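Of 21 results that answer a comparison, 14 kept a count within 1.5 times of the reported one under every alternative run. In GABAergic neurons the count of 1 (Tnr) was 0 with the first or the second library alone for aplCoA 1, with no filter on nuclei, without mixed clusters (chosen after seeing the data) and at an adjusted p under 0.01 with 1.5-fold, and 0 to 1 on leaving out a replicate; Tnr ran from -0.35 to -0.21 (edgeR and other tools, adjusted p 0.0171 to 0.172). Over all nuclei 2 became 4 with no filter or filterByExpr (with the latter Acan, -0.60, edgeR adjusted p = 0.0297, and Hapln4, 1.08, 0.00795, were added), 1 with the first library alone, 0 with the second library alone or the stricter threshold, and 0 to 2 without a replicate. With the replicate number as a block it was 1, as Vcan was lost (-0.36, edgeR adjusted p = 0.0546), and the block changed no other call; not every sample correlated best with its own number. Glutamatergic neurons and their Slc17a7 clusters went from 0 to 1 with no filter or filterByExpr (Hapln4), and from 0 to 1 without a replicate. Astrocytes went from 0 to 1 with no filter (Tnr 0.57, adjusted p 0.000744 by edgeR) and 0 to 1 without a replicate, and OPC 0 to 1 without a replicate. Leaving out a replicate gave 4 to 5 calls between OPC and NFOL (Acan lost without pplCoA 2, 0.73, edgeR adjusted p = 0.064), 5 to 6 for Pvalb neurons, and 3 to 5 between Slc17a6 and Slc17a7 clusters. In the other class contrasts and in MOL and NFOL it changed no count.

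Of the members' log2 values 13 changed sign, all uncalled. Without a replicate, Hapln1 in GABAergic neurons ran from -0.076 (without aplCoA 3; -0.016 without pplCoA 3) to 0.20, in OPC Acan from -0.27 to 0.12 (without pplCoA 2), Vcan from -0.0071 (without pplCoA 3) to 0.064, Tnr from -0.061 to 0.011 (without aplCoA 1) and Tnc from -0.16 (without aplCoA 3) to 0.50, Bcan over all nuclei from -0.086 (without aplCoA 3; -0.042 without pplCoA 2) to 0.18, Tnc in astrocytes from -0.13 to 0.082 (without aplCoA 1), Ncan in glutamatergic neurons from -0.090 to 0.025 (without aplCoA 3) and Hapln2 between neuron classes from -0.31 (without aplCoA 1) to 0.29. With no filter on nuclei Hapln1 in GABAergic neurons was -0.025 and Tnc between NFOL and MOL -1.03. The causes were not tested. Levels moved by over 1 SD in 31 of their alternatives and did not in 689, and shares of nuclei with a UMI in 41 against 49, thinning among them. The Pvalb and Slc17a6 contrasts were not run with the members kept in clustering, at resolution 2.0 or with no filter on nuclei. Depth limits Acan, Hapln2, Hapln3 and Hapln4, each under 1000 UMIs.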
